A study of Mus musculus with 2 samples.

Results

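The genes described here are 43 mouse genes that build and police the mitotic spindle: kinases, checkpoint proteins, kinetochore subunits, motors, the machinery of the central spindle and cytokinesis, and a few markers and regulators of the cell cycle. They were chosen by name and role and were found by matching gene IDs in the deposited tables to gene symbols, which gave all 43 among 42462 genes with a symbol (43346 genes in all). The samples were kidneys of B6NCrl mouse embryos at embryonic day 14.5, with no treatment or engineered allele given in the labels. Each of the 2 libraries came from 2 kidneys of 1 pup, collected on different days, and was made from 10 ng of total RNA longer than 200 nt. They are biological replicates 1 and 2 of a single group, so no conditions were compared and the spread between the libraries is the only measure of error. The labels give the sex of each sample as pooled, which is at odds with a single pup.

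Mitosis is driven by kinases that switch on as a cell enters division, while the anaphase-promoting complex (APC/C) ends it by marking securin and cyclin B for destruction. Until every chromosome is attached to microtubules through its kinetochore, the spindle assembly checkpoint holds the APC/C activator Cdc20 in an inhibitory complex. Most genes of this machinery are transcribed late in the cycle, in G2 and M phase, through promoters bound by the DREAM complex, the MuvB core with B-Myb and Foxm1, and NF-Y. In the fetal kidney, the nephron progenitors, the stroma and the tips of the ureteric tree all divide, so RNA of these genes reflects both the number of dividing cells and the RNA in each, and in a whole tissue the 2 cannot be told apart.

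The deposited tables held 29718428 expected counts (estimated reads per gene) for replicate 1 and 29204212 for replicate 2. All 12 kidney marker genes of the list were at 1 TPM or more in both libraries, with a median of 47.5 TPM. Of these, Calb1, a marker of the ureteric and distal epithelium, was at 164 and 168 TPM, Cited1, a nephron progenitor gene, at 131 and 141 TPM, and Ret, the receptor of the ureteric tip, was lowest at 11.1 and 5.07 TPM. Markers of neighbouring or passing cells were also read: 5 of 8 erythroid genes were detected, led by Hbb-bs (2557 and 2188 TPM) and Hba-a1 (2099 and 1760 TPM), with Gata1 at 0.38 and 0.40 TPM. Of the gonad and germ cell genes 2 of 8 were detected, Sox9 (33.4 and 29.4 TPM), which the kidney also expresses, and Nanos3 (2.19 and 2.39 TPM), while Foxl2 was at 0. Of the adrenal cortex genes 1 of 6 was detected, Mc2r (3.01 and 3.19 TPM), with Star at 0.92 and 0.97 TPM and Cyp21a1 at 0. The part that such cells have in the mitotic RNA was not tested.

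All 43 genes were detected, meaning at least 1 TPM (transcript abundance scaled for length and library total, which can be set side by side between genes) in both libraries. Detection over the same tables was 33.5% of genes with a symbol and 59.0% of protein-coding genes. The median of the members' mean levels was 66.5 TPM, against 18.3 TPM over the 12669 detected coding genes. Of the members, 41 lay above that coding median and 11 above the coding 90th percentile, 109 TPM. Levels ran from 10.4 TPM for Kifc1 to 538 TPM for Cks1b, a 51.9-fold range. Together the members took 0.602% and 0.617% of the counts on genes. Their order was much the same in both libraries (Spearman's rho 0.97 over 43 genes, a description only). The median coefficient of variation between the libraries was 13.8%, against 18.2% over the detected coding genes, a set not matched for level or length.

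**Figure D1:**
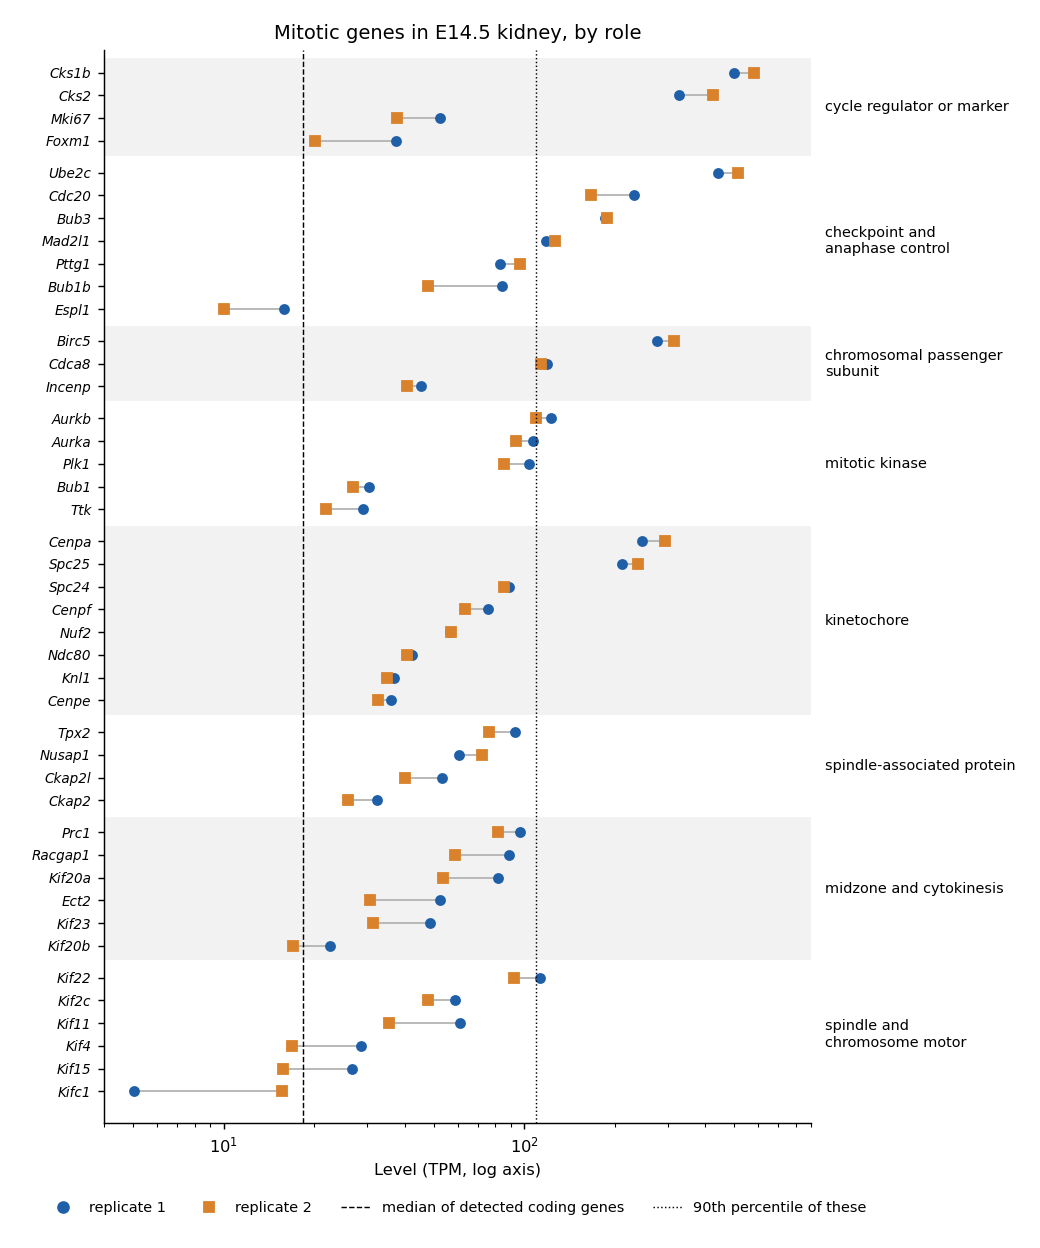
Level of each of the 43 genes in TPM (log axis) in replicate 1 (circles) and replicate 2 (squares), grouped by role and ordered by role median. The dashed and dotted lines mark the median (18.3 TPM) and the 90th percentile (109 TPM) of detected coding genes. Cks1b, Ube2c and Cks2 stand highest, and Kifc1 is the lowest gene and has the widest gap between the libraries on this axis.

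The members lie on 16 chromosomes, with 9 on chromosome 2. Of these, Bub1b, Knl1 and Nusap1 fall within 1.05 Mb (chromosome 2, 118598211 to 119651244, GRCm38).

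Because late cell-cycle genes are known to share promoter elements, the windows from 250 nt before to 50 nt after the RefSeq start (GRCm38.p6) were searched on both strands for the CCAAT box, which NF-Y binds, and for TTTGAA, the core of the cell cycle homology region that the MuvB complexes bind. A window was given for 37 of the 43 members, and Bub3, Ect2 and Prc1 had a second one. Aurkb, Incenp, Spc24, Kif20a, Tpx2 and Foxm1 had none. TTTGAA was present in 29 of the 37 members (78.4%), against 20.2% of 27025 genes with a window and 14.3% of the detected coding genes. Within 50 nt on either side of the start it was present in 26 of 37 (70.3%), against 5.72% of all genes. CCAAT was present in 27 of 37 (73.0%), against 41.1% of all genes and 43.4% of detected coding genes, and 18 members had at least 2 copies (48.6%, against 13.3%). Both motifs stood in 1 window for 24 of 37 members (64.9%, against 7.97%). Of 83 genes with a window in 5 lists of other mitotic genes, TTTGAA was in 36.1%. The share ran from 18.8% in the APC/C and inner kinetochore lists to 53.8% in the outer kinetochore list. CCAAT was in 56.6% of the 83 genes and both motifs in 25.3%. These shares describe letters in a window, not sites in use.

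The sequences of 4 members with both motifs just upstream of the start, and of Birc5, which had neither in its window, show the arrangement. Each is the 120 bases that end 1 base before the RefSeq start, on the gene's strand, 5′ to 3′, with CCAAT or its reverse complement ATTGG and TTTGAA or its reverse complement TTCAAA in capitals. They lie at chr4:118437344-118437463 (minus strand, Cdc20), chr19:37376262-37376381 (plus, Kif11), chr15:102296173-102296292 (plus, Espl1), chr2:129297213-129297332 (minus, Ckap2l) and chr11:117849117-117849236 (plus, Birc5).
Cdc20: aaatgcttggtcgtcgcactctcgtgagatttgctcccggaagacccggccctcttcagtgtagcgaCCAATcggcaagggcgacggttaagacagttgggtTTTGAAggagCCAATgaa
Kif11: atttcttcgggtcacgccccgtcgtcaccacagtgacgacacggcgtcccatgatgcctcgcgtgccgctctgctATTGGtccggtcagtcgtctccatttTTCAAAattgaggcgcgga
Espl1: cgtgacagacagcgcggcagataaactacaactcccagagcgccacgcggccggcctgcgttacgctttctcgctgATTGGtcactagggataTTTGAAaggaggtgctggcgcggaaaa
Ckap2l: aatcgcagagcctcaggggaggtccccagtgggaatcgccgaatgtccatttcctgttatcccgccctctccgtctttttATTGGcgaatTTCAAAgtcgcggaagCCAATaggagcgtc
Birc5: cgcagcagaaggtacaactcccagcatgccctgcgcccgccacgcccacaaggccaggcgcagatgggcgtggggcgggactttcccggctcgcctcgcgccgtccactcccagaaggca
In Cdc20 a CCAAT box began 53 bases and TTTGAA 18 bases upstream of the start, and in Kif11 the 2 motifs, both on the reverse strand, began 45 and 19 bases upstream. Espl1 had them at 44 and 27 bases. Ckap2l carried a box on either side of a reverse-strand TTTGAA.

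The spacing was looked at after the positions were seen. In 26 of the 27 member windows with both motifs, a CCAAT box lay upstream of the TTTGAA nearest the start (96.3%). This compares with 53.7% of 2284 such windows over all genes and 52.5% of 632 over detected coding genes. The median distance between their first bases was 33.5 nt in members and 62.5 nt over all genes. The distance was within 50 nt in 22 of the 27 (81.5%, against 22.8% over all genes and 29.7% over detected coding genes). Ckap2 was the member whose box was not upstream.

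**Figure D2:**
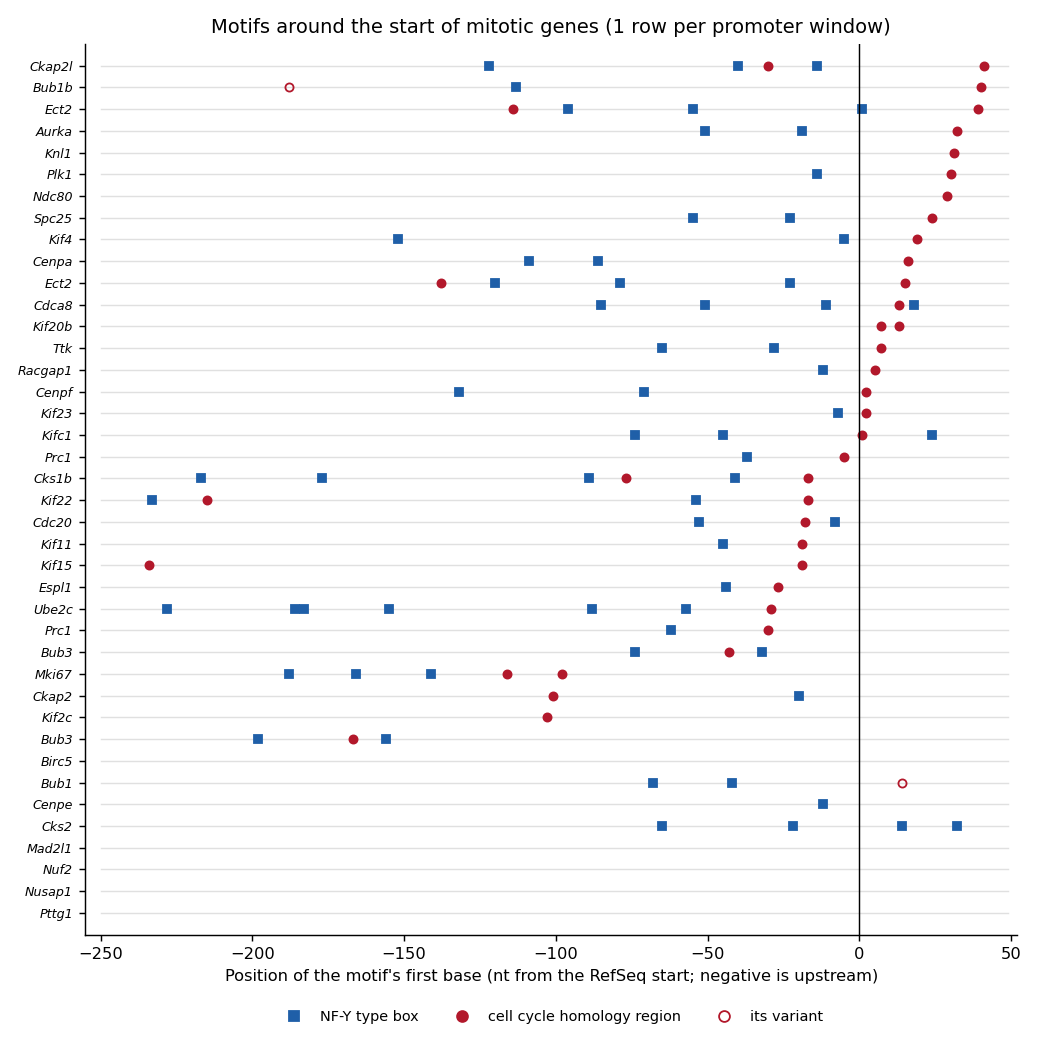
Position of the first base of each motif, in nt from the RefSeq start (negative is upstream), in the 40 promoter windows of 37 members. Squares are CCAAT boxes, filled circles TTTGAA and open circles its variant TTCGAA. Most TTTGAA copies gather around the start with squares to their left. The bottom rows show members without TTTGAA, of which Bub1, Cenpe and Cks2 have CCAAT boxes.

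TTTGAA was not found in the windows of 8 members. The variant TTCGAA was in the windows of Bub1 and Bub1b, and Bub1b also had TTTGAA. Cenpe and Cks2 had CCAAT alone, and Kif15, Kif20b, Kif2c, Knl1 and Ndc80 had TTTGAA alone. Birc5, Mad2l1, Nuf2, Nusap1 and Pttg1 had none of the 3 letter strings, and their mean levels ran from 56.6 TPM (Nuf2) to 295 TPM (Birc5), with 19 members below that range and 3 above it. For Pttg1 the RefSeq start lies 270 nt inside the GENCODE gene and for Mad2l1 169 nt outside it, so the windows cover another stretch than the GENCODE start. The same holds for members counted with a motif. Their RefSeq start lies inside the GENCODE gene by 3867 nt in Kif2c, 2394 nt in Cdca8 and 328 nt in Kif4. In the 2 windows of Bub3 it lies 148 and 272 nt inside. The E2F-type strings TTTCCCGC and TTTGGCGC, which occur in promoters of the G1/S wave, were found in 1 member, Kif15. In the 5 lists of other mitotic genes 12 of 83 held such a string (14.5%), and in cohesin and condensin genes 6 of 16 did (37.5%). Of 29 DNA replication genes with a window, by comparison, 11 held an E2F-type string (37.9%, against 1.80% of all genes) and 5 held TTTGAA (17.2%). CCAAT was in 20 of those 29 (69.0%), with at least 2 copies in 44.8%, shares close to the 73.0% and 48.6% of the mitotic members.

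Among the mitotic kinases, Aurkb, the kinase of the chromosomal passenger complex, was at 122 and 109 TPM (replicate 1 first here and below). Aurka, which works at spindle poles, was at 107 and 94.2 TPM. Aurkb was 1.15-fold and 1.16-fold above Aurka in the 2 libraries, a ratio that differed less between libraries than either level. Plk1, the polo-like kinase that acts from mitotic entry to cytokinesis, was at 104 and 85.3 TPM. The checkpoint kinases stood lower: Bub1, which recruits checkpoint proteins and shugoshin to kinetochores, was at 30.5 and 26.8 TPM and Ttk (Mps1), which starts checkpoint signalling, at 29.1 and 21.9 TPM. In each of the libraries the 3 kinases with broad mitotic roles stood above the 2 checkpoint kinases. The checkpoint kinases are also longer, at 2801 nt (Ttk) and 3224 nt (Bub1) in replicate 1. The others were at 1826 nt (Aurkb), 1851 nt (Aurka) and 2203 nt (Plk1). All 5 kinases were lower in replicate 2 in TPM, but with counts scaled by TMM factors 4 of the 5 were higher.

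Ube2c, the E2 enzyme that starts ubiquitin chains for the APC/C, led the checkpoint and anaphase genes at 440 and 515 TPM. Cdc20, the APC/C activator and checkpoint target, was at 231 and 166 TPM. Bub3, a checkpoint adaptor that also has functions outside mitosis, was at 186 and 188 TPM, and Mad2l1 (Mad2), which clamps Cdc20, at 118 and 127 TPM. Bub3 differed between the libraries by an SD of 1.74 TPM and Mad2l1 by 5.88 TPM, whereas Bub1b (BubR1), the largest subunit of the mitotic checkpoint complex, was at 84.0 and 47.9 TPM (SD 25.5 TPM). Cdc20 was therefore 2.75-fold above Bub1b in replicate 1 and 3.48-fold in replicate 2, and it ranked first of the 4 subunits in replicate 1 and second, behind Bub3, in replicate 2. Pttg1 (securin), the inhibitor that is destroyed at anaphase, was at 82.7 and 96.8 TPM. Its target Espl1 (separase), the protease that opens cohesin, was at 15.9 and 10.1 TPM. Securin RNA exceeded separase RNA 5.20-fold and 9.63-fold.

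The chromosomal passenger complex places Aurora B at centromeres and later at the midzone. Birc5 (survivin), its centromere-targeting subunit, was at 275 and 315 TPM. Cdca8 (borealin) was at 119 and 113 TPM, next to Aurkb, with Cdca8 over Aurkb at 0.970 and 1.04. Incenp, the scaffold that activates the kinase, was lowest at 45.4 and 40.8 TPM, so that Birc5 exceeded it 6.06-fold and 7.72-fold. Birc5 first and Incenp last was the order in both libraries, while Cdca8 and Aurkb changed places.

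At the kinetochore, Cenpa, the histone H3 variant that marks centromeres, was highest at 247 and 295 TPM. Spc25 followed at 211 and 239 TPM and its partner Spc24 at 89.3 and 85.3 TPM. The other arm of the same Ndc80 complex, which binds microtubules, was lower: Nuf2 was at 56.5 and 56.8 TPM and Ndc80 (Hec1) at 42.3 and 40.7 TPM. The order Spc25, Spc24, Nuf2, Ndc80 held in both libraries, with Spc25 4.98-fold and 5.86-fold above Ndc80. The TPM of Ndc80 and of its transcribed pseudogene 2700099C18Rik summed to 63.2 and 62.4, above Nuf2. In that sum the pseudogene adds 20.95 and 21.63 TPM from only 392 and 514 expected counts. By expected counts, Ndc80 and the pseudogene together held 2126 and 2442, still below the 2217 and 2578 of Nuf2, the shorter of the 2 subunits. In each of the 2 libraries the subunits that anchor the complex at the inner side (Spc24 and Spc25) were above those that hold microtubules. They are also shorter, at 1349 nt (Spc24) and 1379 nt (Spc25) in replicate 1, against 2112 nt (Nuf2) and 2201 nt (Ndc80). The part of length in this order was not tested. Cenpf, a large outer kinetochore protein, was at 75.9 and 63.6 TPM. Knl1, the scaffold that recruits Bub1 and Bub3, was at 36.8 and 34.9 TPM, and Cenpe, the kinetochore motor that moves chromosomes to the plate, at 35.9 and 32.7 TPM.

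**Figure D3:**
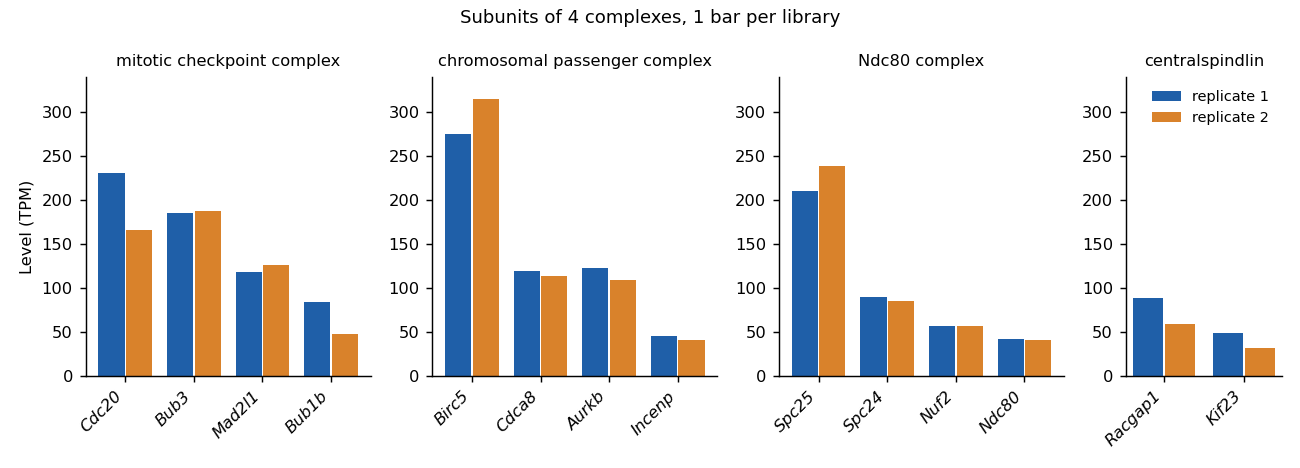
Levels in TPM of the subunits of the mitotic checkpoint complex, the chromosomal passenger complex, the Ndc80 complex and centralspindlin, with 1 bar for each library. Subunits of 1 complex differ in RNA level by 1.83-fold (Racgap1 over Kif23, replicate 1) to 7.72-fold (Birc5 over Incenp, replicate 2).

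Motors of the spindle and chromosomes had the lowest role median, 35.5 TPM. Kif22 (Kid), which pushes chromosome arms outward, was at 113 and 92.5 TPM and Kif2c (MCAK), which takes microtubules apart, at 58.6 and 47.8 TPM. Kif11 (Eg5), the motor that separates the spindle poles, was at 60.9 and 35.6 TPM, and Kif15, which can take its place in holding the spindle open, at 26.8 and 15.8 TPM. Kif4, a chromokinesin, was at 28.6 and 16.9 TPM. Kif11, Kif15 and Kif4 differed alike between the libraries, 1.71-fold, 1.69-fold and 1.69-fold higher in replicate 1. Exons of Kif4 overlap exons of Pdzd11 on the opposite strand over 15.1% of their length, and Pdzd11 was at 86.0 and 98.7 TPM.

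Kifc1 (HSET), the minus-end motor that focuses spindle poles, was the exception among motors and among all members. It was at 5.04 TPM in replicate 1 and 15.7 TPM in replicate 2, from 198 and 669 expected counts, 3.11-fold higher in replicate 2. The gene lies on chromosome 17, 33875659 to 33890661, minus strand. Its leading coding transcript, Kifc1-204, was likewise at 3.85 and 12.5 TPM. A near-identical gene, Kifc5b (chromosome 17, 26917091 to 26932583), matches 97.5% of that transcript at 96.8% identity, so how reads were shared between them is uncertain. Kifc5b was at 1.61 and 2.94 TPM from 79.2 and 167 expected counts. The sum of both genes was 6.65 TPM in replicate 1 and 18.6 TPM in replicate 2, so the gap was also present in the sum.

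The 6 midzone and cytokinesis genes were all lower in replicate 2 in TPM and FPKM, and 5 of 6 were with TMM-scaled counts. Prc1, which bundles the antiparallel microtubules of the central spindle, was at 96.6 and 81.9 TPM. Of the centralspindlin subunits, the GTPase-activating protein Racgap1 was at 88.8 and 58.8 TPM and the motor Kif23 (Mklp1) at 48.4 and 31.4 TPM. The ratio of Racgap1 to Kif23 was 1.83 in replicate 1 and 1.87 in replicate 2, so both subunits differed between libraries by nearly the same factor. Ect2, the exchange factor that activates RhoA at the cleavage furrow, was at 52.3 and 30.6 TPM. Kif20a (Mklp2), which carries the passenger complex to the midzone, was at 81.9 and 53.8 TPM, and the related kinesin Kif20b, which acts in cytokinesis, at 22.6 and 17.0 TPM. Exons of Kif20a overlap those of Cdc23, an APC/C subunit on the opposite strand, over 29.3% of their length. Cdc23 was at 107 and 55.4 TPM, and whether counting used strand is not given, so the level of Kif20a carries that uncertainty.

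The spindle-associated proteins had a median of 56.6 TPM. Tpx2, which activates Aurora A and nucleates microtubules near chromatin, was at 93.4 and 76.4 TPM. Nusap1, a microtubule bundler, was at 60.5 and 72.6 TPM, and in TPM it was the 1 member of this role that was higher in replicate 2. Ckap2l (radmis), a spindle protein of dividing progenitors, was at 53.3 and 40.1 TPM. Its paralog Ckap2, which stabilises spindle microtubules, was at 32.3 and 26.0 TPM.

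The small Cdk-binding proteins had the highest levels of the 43 genes together with Ube2c. Cks1b was at 497 and 579 TPM and its paralog Cks2 at 327 and 425 TPM, a ratio of Cks1b to Cks2 of 1.52 and 1.36. The processed pseudogene Gm15452 (chromosome 1, 8791923 to 8792162) is identical to Cks2 over 240 nt, 34.7% of the Cks2 transcript, and was listed at 76.4 and 101 TPM, so reads may be divided between them. Their TPM summed to 404 and 526, but the pseudogene held only 5.26% and 5.37% of their summed counts. Likewise Ndc80 has a transcribed pseudogene, 2700099C18Rik, that matches 60.7% of its transcript at 92.5% identity and held 18.4% and 21.0% of their summed counts. Mki67, which codes for the proliferation marker Ki-67, was at 52.5 and 37.8 TPM, so its RNA was 8.39-fold and 13.6-fold below that of Ube2c. Foxm1, the transcription factor that activates many G2/M genes, was at 37.5 and 20.2 TPM, 1.86-fold higher in replicate 1.

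The transcript tables show which isoforms carried these levels. Of the 43 genes, 16 had a single transcript, and of the 27 with more, 26 were led by the same transcript in both libraries. Among all genes with at least 2 transcripts and 5 TPM in both libraries, 89.2% were. The exception was Kif20a, whose transcripts of 3567 nt (Kif20a-201) and 3565 nt (Kif20a-202) took 54.0% and 46.0% of its level in replicate 1 and 41.4% and 58.6% in replicate 2. In 35 members coding transcripts made up at least 90% of the level in both libraries.

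Cenpa was the 1 member led by a transcript that is not annotated as coding. Transcript types are those of GENCODE M21, while the levels rest on M4. Cenpa-202 is 1151 nt as quantified and 1031 nt in M21, and Cenpa-205 is 1354 and 1466 nt. The type may therefore not hold for the transcript model that was quantified. Cenpa-202, annotated as a target of nonsense-mediated decay, held 46.6% and 42.4% of its level, and the coding Cenpa-205 held 35.7% and 33.9%. Coding transcripts of Cenpa summed to 37.0% and 34.8%. Of the level of Cenpf, the 11130-nt transcript Cenpf-204 held 24.8% and 21.6%, while the 3001-nt Cenpf-203 held 34.5% and 34.2% and the 609-nt Cenpf-201, annotated as a target of nonsense-mediated decay, 29.5% and 32.0%. Knl1 was led by the 1573-nt Knl1-204 (53.6% and 43.4%), and its longest transcript, the 7800-nt Knl1-202, held 17.0% and 14.5%. The levels of Cenpf and Knl1 thus come largely from annotated short transcripts, and the full-length Knl1-202 was at 6.25 and 5.06 TPM. The 2 coding transcripts of Nusap1 shifted between the libraries: the longer Nusap1-201 held 11.2% in replicate 1 and 28.9% in replicate 2, or 6.78 and 21.0 TPM, while Nusap1-202 stayed at 53.7 and 51.6 TPM. The higher level of Nusap1 in replicate 2 was thus carried by the longer transcript. Mad2l1-201, likewise, was at 35.3 and 13.9 TPM while the leading Mad2l1-202 was at 77.4 and 107 TPM. Transcript shares are estimates from short reads, and their error was not tested.

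**Figure D4:**
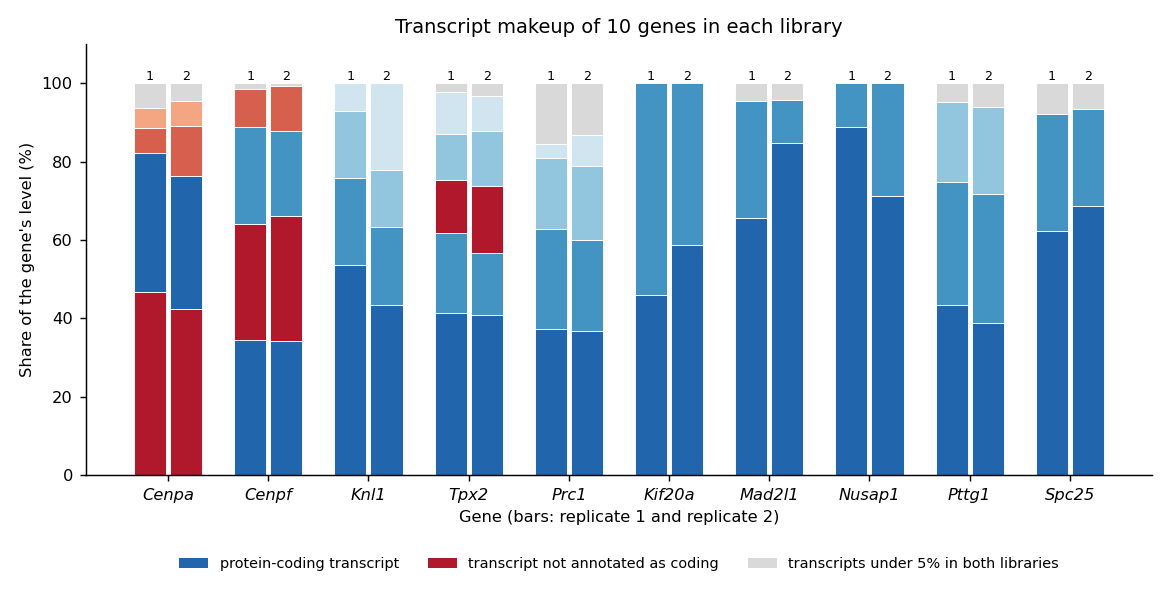
Share of each gene's level (percent) held by its transcripts in replicate 1 and replicate 2 for 10 genes. Blue segments are protein-coding transcripts, red ones transcripts not annotated as coding, and grey the transcripts under 5% in both libraries. Cenpa is led by a red segment (46.6% and 42.4%), and Kif20a changes its leading transcript.

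Between the libraries, 31 members were lower and 12 higher in replicate 2. Over all genes at a mean of 1 TPM or more, 73.1% were lower, a share close to that of the members. The median log2 ratio of replicate 2 over replicate 1 (TPM + 1) was -0.24 over the members and -0.26 over 14960 genes. The all-gene median depends on the scale: it was -0.01 with TMM-scaled counts, where the members' median was 0.06 and 17 members were lower and 26 higher. Only Kifc1 differed at least 2-fold with 5 TPM or more in the higher library, a log2 ratio of 1.47. Over all 11424 genes at that level, 0.998% were apart in that direction and 4.54% in the other, in which no member was. The deposited credibility intervals of the 2 libraries, which cover the estimate within a library and not the animals, did not overlap for 27 members higher in replicate 1 and 9 higher in replicate 2. Over all genes at that level they did not overlap for 53.7% and 11.2%.

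The differences between libraries moved with transcript length. Members under 1000 nt (Birc5, Cks1b, Cks2, Pttg1 and Ube2c) were all higher in replicate 2, with a median log2 ratio of 0.22, and coding genes of that length had a median of 0.18. Members of 4000 to 5000 nt (Kif11, Kif15 and Kif4) were all lower, with a median of -0.73, against -0.58 for coding genes of that length. Both groups kept their direction in FPKM and with TMM-scaled counts, where their medians were 0.54 and -0.45. Pearson's r between the ratio and log length was -0.60 over the 43 members, whose points share the 2 libraries, and -0.54 over the detected coding genes. Of the members, 41 lay within 0.5 of the median of their length class, and the others were Kifc1 (1.81 above it) and Nusap1 (0.77 above it). Roles differed in length too: midzone genes, with a median log2 ratio of -0.59, had a median length of 3495 nt, and passenger subunits, with a median ratio of -0.07, one of 1646 nt. The level itself also went with length, with r of -0.75 between log level and log length over members and -0.34 over coding genes, so the high levels of the short genes Ube2c, Cks1b, Cks2 and Birc5 and the low ones of Espl1, Kif20b and Kif15 sit at opposite ends of the length range. The part of length in these values was not tested.

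**Figure D5:**
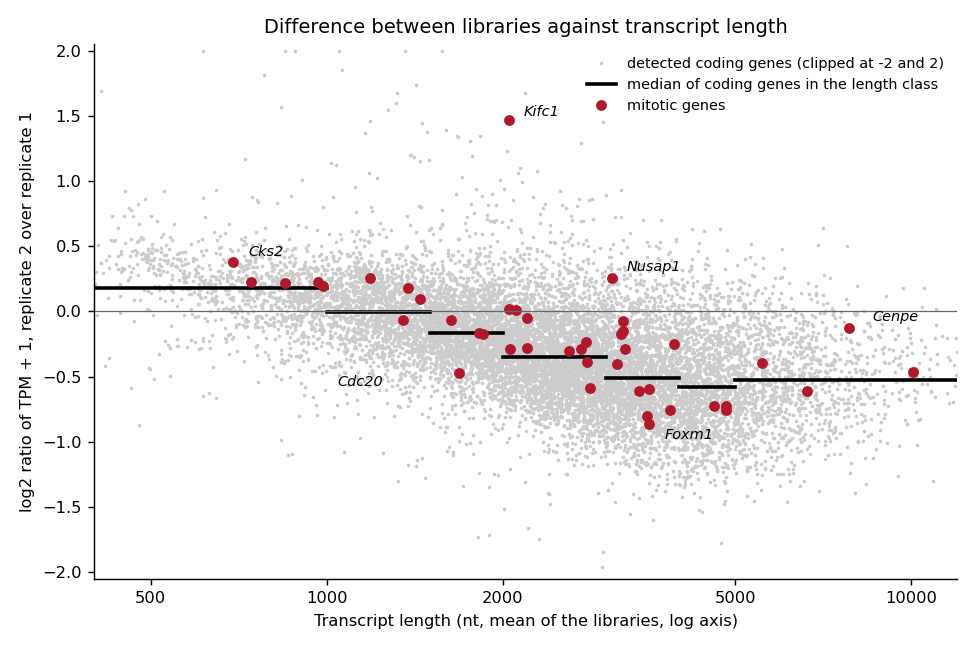
The log2 ratio of TPM + 1 in replicate 2 over replicate 1 against transcript length (nt, log axis, from 400 nt) for the 43 mitotic genes (large points) and detected coding genes (small points, clipped at -2 and 2). Black bars are the medians of coding genes by length class. The mitotic genes follow the bars from 0.22 under 1000 nt to -0.73 at 4000 to 5000 nt, and Kifc1 stands above at 1.47.

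Other mitotic genes, 96 in 5 lists, were all detected, at a median of 40.3 TPM. Of the APC/C and its regulators (17 of 17 detected, median 79.4 TPM), Ube2s, which extends the chains that Ube2c starts, was at 347 and 393 TPM, Anapc5 at 280 and 184 TPM and Anapc10 lowest at 14.1 and 18.5 TPM. The inner kinetochore network (16 of 16) had a median of 32.6 TPM, with Cenpx at 124 and 146 TPM, Cenpw at 58.9 and 92.5 TPM and Cenpo at 11.9 and 8.70 TPM. Outer kinetochore and loading factors (16 of 16) had a median of 28.4 TPM and ran from Kntc1, of the RZZ complex, at 11.4 and 5.79 TPM to Pmf1 at 131 and 135 TPM and Zwint at 211 and 201 TPM. Among cohesin and condensin subunits (19 of 19, median 44.5 TPM) the condensin ATPases Smc2 (182 and 172 TPM) and Smc4 (145 and 151 TPM) led and Ncapg2 was lowest (19.8 and 10.7 TPM). In the list of other spindle and entry genes (28 of 28, median 38.4 TPM), Cdk1 was at 426 and 433 TPM, its partner Ccnb1 at 248 and 217 TPM and Kif14 at 6.99 and 3.07 TPM. Across these 96 genes, 69 were lower in replicate 2 in TPM (71.9%, against 73.1% of all genes) and 43 were with TMM-scaled counts. By the 2-fold rule 3 were apart (3.12%, against 4.54% of all genes), Ckap5, Nsl1 and Pds5a. All were higher in replicate 1, as they were on each scale, and 1 of the 3 stayed past 2-fold with TMM-scaled counts.

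The DNA replication genes, which act in S phase, were all detected (36 of 36) at a median of 77.9 TPM, from Orc1 at 9.24 and 6.17 TPM to Mcm6 at 242 and 132 TPM and Pcna at 267 and 286 TPM. Of the meiotic counterparts of the mitotic machinery 3 of 12 were detected, and Aurkc, Hormad1, Meikin, Rad21l, Sycp1 and Sycp3 had a count of 0 in each library, where up to 3 counts remain possible. Rec8 was at 13.5 and 18.8 TPM and Stag3 at 3.65 and 2.38 TPM.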

How the data were processed

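Total RNA from 2 kidney samples was compared gene by gene. Per the file headers, the deposited gene and transcript tables hold expected counts (estimated read numbers), TPM, FPKM, posterior mean TPM, the bounds of a credibility interval of TPM (a signal on that scale, at a level not given), length and effective length in nt (other), and the percent of a gene's TPM in each transcript. Per the file headers the assembly was mm10 with annotation M4. The quantification tool and the strand setting are named neither in the labels nor in the headers.

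The 43 members were matched by gene ID, version dropped, to symbols and coordinates of GENCODE M21 (GRCm38), another release than that of the tables. Transcript names and types are also from M21, and for 17 leading transcripts the deposited length differs from the M21 length. Members and lists were chosen with earlier results of these data known. All 43 members are named with their levels, and from each other list the 2 highest and the lowest gene are. Transcripts are named where the leading one differs between the libraries or is not protein-coding, and the others named were chosen after their shares were seen. A gene was detected at 1 TPM in both libraries. Ratios are log2((TPM + 1) of replicate 2 over replicate 1), and 2 libraries were called apart at an absolute ratio of 1 with at least 5 TPM in the higher one. Near-identical copies were sought with blastn 2.17.0 against the M21 transcripts (at least 90% identity over at least 20% of the leading transcript). Motifs were searched on both strands of RefSeq promoter windows (GRCm38.p6). With 1 group of 2 samples there is no test and no p-value. Alternatives covered other deposited units, rescaled TPM, TMM factors (edgeR 4.0.16, R 4.3.3, expected counts rounded) and size factors, pseudocounts, floors, each replicate alone, and other motif windows. Calculations used Python 3.11.15, numpy 2.4.6 and pandas 2.3.3. Protein sequences were not used here. Depth was 29718428 and 29204212 expected counts.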

Additional observations from a re-analysis of the deposited data

How the results depend on the processing

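With 1 group of 2 libraries, every alternative shows how a value moves, not whether a difference is real. All 43 members were detected at floors of 0.5 and 5 TPM, with at least 10 expected counts, and in each library alone. The median member level was 66.5 TPM, and in FPKM it was 47.6, on another scale. Rescaling without spike-ins, mitochondrial and haemoglobin genes multiplied every level in a library by 1 factor and moved 26 of the 43 member levels by more than their SD, FPKM moved 34 and the posterior mean moved 3. The median log2 ratio of replicate 2 over replicate 1, -0.24 over members, was -0.00606 in FPKM, 0.0606 with TMM factors and 0.0346 with size factors, so the direction of the typical member depends on the scale. With TMM factors the medians of the kinases, kinetochore genes, passenger subunits and regulators turned positive, and those of the motors, midzone and spindle-associated genes stayed negative. The median over all genes moved along, from -0.26 to -0.06, -0.01 and -0.03. The gap between members and all genes was 0.03, and it was -0.0470 with the posterior mean, -0.0504 with a pseudocount of 5 and -0.24 with no filter on low values, where most genes are at or near 0. Kifc1 was the 1 member apart between the libraries under every scale and pseudocount. At a 1.5-fold threshold 11 members were apart, of which 10 were higher in replicate 1 (23.3%, against 24.7% of all 11424 genes) and 1 in replicate 2 (2.33%, against 2.45%). The same leading transcript was found for 26 of 27 members under each alternative. CCAAT was in 27 members from 150 nt before the start to the start and at least 2 copies in 18, and TTTGAA was in 29 from 150 nt before to 50 nt after it, or 30 with its variant. No paired analysis was possible because there is 1 group.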

Other observations

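The difference of Kifc1 between the libraries was looked at further after its values were seen. Within 50000 nt of the gene, the 3 other genes at 1 TPM or more on its strand, the minus strand, were all higher in replicate 2. Over all genes at a mean of 1 TPM or more, 73.1% were lower in replicate 2 in TPM. That share depends on scale and length. The all-gene median log2 ratio was -0.26 in TPM and -0.01 with TMM-scaled counts, and detected coding genes under 1000 nt had a median of 0.18. The neighbours were not compared with genes of their own length. The noncoding BC051226, annotated as a bidirectional promoter RNA, starts at 33909317 on the minus strand, and Daxx starts at 33909414 on the plus strand. Kifc1 itself starts at 33890661. BC051226 was at 1.73 TPM in replicate 1 and 9.48 TPM in replicate 2 (19 and 104 expected counts, log2 ratio 1.94). The antisense gene Gm19412 was at 2.82 and 6.17 TPM, from 22.7 and 53.8 expected counts. Pfdn6, a prefoldin subunit, was at 127 and 151 TPM (log2 ratio 0.25, against 0.36 for Ndufa7 on the plus strand). Of the 7 plus-strand genes there, 2 were higher in replicate 2 (Ndufa7 at 400.4 and 515 TPM, Cd320 at 90.3 and 92.9 TPM) and 5 were lower, such as Daxx at 39.3 and 24.8 TPM. The counts of BC051226 and Gm19412 are small, and whether counting used strand is not given. What these genes share was not tested.

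Among the meiotic counterparts, Rec8, the meiotic kleisin of cohesin, had the highest mean level, 16.1 TPM (13.5 TPM in replicate 1 and 18.8 TPM in replicate 2), below 41 of the 43 members and above Espl1 and Kifc1. Sycp1 and Sycp3, which build the synaptonemal complex, were listed at 0 in both libraries.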
